A study of Homo sapiens with 23 samples.

Results

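The regions described here carried a peak of LSD1 (KDM1A) in control SH-SY5Y cells at day 0 of BDNF treatment and a peak in none of 4 other chromatin immunoprecipitation libraries. Peaks of 5 lists were pooled, peaks sharing 1 bp or more were merged into regions, and a region was kept when LSD1 in control cells at day 0 was its sole source. This left 4788 of the 32188 regions of all lists. They made up 28.7% of the 16655 regions with an LSD1 peak in control cells at day 0, with an exact 95% binomial interval of 28.1 to 29.4%. Each of the 4788 regions held 1 peak. The members were chosen by the measured peak calls of these libraries, so the presence of LSD1 at day 0 and its absence from the other lists are not findings, and the values below are a description with no test.

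SH-SY5Y is a human neuroblastoma line that acquires neuronal features under retinoic acid followed by brain-derived neurotrophic factor (BDNF). Per the labels' protocols, all groups had retinoic acid at 10 µM for 4 days before BDNF at 50 ng/mL, and day 0 and day 3 name the stages of that second step. The lists are LSD1 in cells with control shRNA at day 0, LSD1 in cells with shRNA against LSD1+8a at day 0, LSD1 in cells with control shRNA at day 3, LSD1+8a in the same cells and day, and supervillin (SVIL) in the same cells and day. Each group is 1 library of 1 cell line, the labels do not say whether infected cells were pools or clones, and no list has a replicate. Intervals therefore cover counting error over regions only, and neighbouring regions are not independent. Of the 23 samples of the series, 9 are inputs and 9 further immunoprecipitations were not analysed here.

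LSD1 removes methyl groups from lysine 4 of histone H3, working with the corepressor CoREST and histone deacetylases at enhancers and promoters. Its neuronal splice form LSD1+8a carries an additional short exon, and the series title assigns that form to demethylation of lysine 9. Supervillin binds actin filaments and is presented in the series as a cofactor of LSD1+8a. BDNF acts through the receptor TrkB, which retinoic acid induces in this line. A region listed at day 0 alone is thus one where the peak caller found LSD1 before BDNF in control cells, and found it neither after BDNF nor in the knockdown at the same stage.

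The day 0 only regions were the most frequent of the 16 combinations in which a control day 0 peak occurred with or without the other lists. Next came 4014 regions shared with LSD1 at day 3 alone, 2774 shared with LSD1 in knockdown cells alone and 2498 shared with both. By single lists, 50.3% of the control day 0 regions had no LSD1 peak at day 3, 57.6% had none in knockdown cells, 87.6% had none of LSD1+8a and 95.6% had none of SVIL. The membership turned mostly on the 2 other LSD1 lists. With the day 3 LSD1 list left out 8982 regions would qualify, and with the knockdown list left out 7592 would, whereas leaving out LSD1+8a or SVIL gives 4954 and 4840. These 4 counts were chosen after the data were seen.

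The day 0 only regions covered 3.58 Mb and held short peaks with few sequenced tags. Their median was 18 tags per peak (quartiles 14 to 25), against 31 (22 to 44) for the 12094 other LSD1 peaks of the same library. Their median length was 692 bp (546 to 869), against 893 bp (726 to 1120). The median score of the authors' peak caller was 64.3, against 91.7, where the lowest score in the list is 50.0. Fold enrichment, the authors' ratio per peak, was nearly the same, with a median of 9.03 (7.27 to 10.99) in day 0 only regions and 9.41 (7.38 to 12.4) in the others. The regions thus stood apart in how many tags their peaks held and how far they extended, and much less in their fold. Summits lay at the middle of the peak in both sets, at a median of 50.2% and 50.5% of its length.

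These values differed stepwise by the number of other lists that shared a region. Median tags were 18 with no other list, 26 with 1, 35 with 2, 45 with 3 and 56 with all 4. Median length was 692, 837, 958, 1024 and 1033 bp in the same order. Median fold was 9.03, 9.14, 9.59, 10.2 and 9.33, so it did not follow the order at the upper end. Values also differed by which list shared the region. Control day 0 peaks shared with LSD1 at day 3 alone had a median of 23 tags and a median score of 74.0, closer to the day 0 only regions than peaks shared with knockdown cells alone, which had 33 tags and a score of 99.8.

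**Figure D1:**
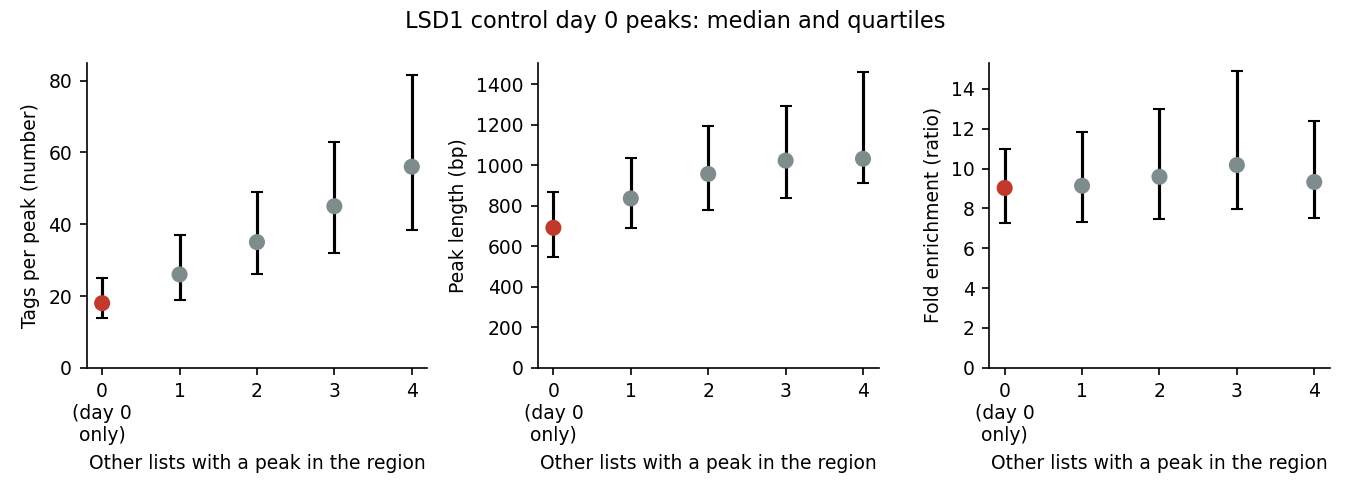
Tags per peak (number), peak length (bp) and fold enrichment (ratio) of LSD1 peaks in control cells at day 0, by the number of other lists with a peak in the same region; points are medians and bars run between the quartiles, with day 0 only regions in red at the left. Median tags and length were lowest in day 0 only regions, at 18 tags and 692 bp, while median fold lay between 9.03 and 10.2 in all 5 sets.

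The share of control day 0 peaks that were found in no other list was lower at each higher score decile. It was 53.8% (51.4 to 56.2) in the lowest score decile, 32.6% (30.4 to 34.9) in the fifth, 7.70% (6.47 to 9.08) in the ninth and 2.31% (1.65 to 3.14) in the highest. By tags the range was wider, from 69.4% (67.2 to 71.6) in the decile with 9 to 13 tags to 3.43% (2.62 to 4.42) in that with 55 to 2704. By fold the share did not fall at each step. The share was 27.5% in the lowest fold decile and 35.5% in the seventh, and then 27.2% in the eighth, 24.7% (22.7 to 26.8) in the ninth and 10.0% (8.62 to 11.5) in the highest. Of the 4788 regions, 567 had a score of at least 100, 105 of at least 150 and 24 of at least 200. A peak of at least 200 was thus rarely found at day 0 only, in 1.79% (1.15 to 2.65) of 1344.

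Beside the many short peaks there were fewer long ones with a shallow profile. Among peaks with 9 to 14 tags, day 0 only peaks and the others were alike in median length, 500 and 516 bp, and in median fold, 9.99 in both. Among peaks with 30 to 49 tags, day 0 only peaks were longer, with a median of 1146.5 bp against 1017 bp, and had a lower fold of 7.33 against 9.33. The gap was wider for 50 to 99 tags, where the 81 day 0 only peaks had a median length of 1649 bp and a fold of 7, against 1311 bp and 10.8 for 1997 others. Day 0 only peaks with many tags thus had them spread over more sequence than shared peaks with as many tags.

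Only 8 of the 4788 regions had a fold enrichment of at least 30, a value that 197 peaks of the whole list reached. These 8 lay on 3 chromosomes. On chromosome 11 the peaks at chr11:94179981-94180747, chr11:94178863-94179242 and chr11:94169962-94170517 had 156, 88 and 41 tags at folds of 193, 132 and 60.7. On chromosome 3 the peak at chr3:17443239-17444110 had 147 tags at a fold of 136, and that at chr3:155829039-155829773 had 43 tags at 49.95. On chromosome 10 the peaks at chr10:29752302-29752683, chr10:29811119-29811674 and chr10:29818534-29818901 had 28, 35 and 27 tags at folds of 35.2, 33.3 and 31.95. The first 3 by score ranked 5, 8 and 13 among all 16882 control day 0 peaks, and the next 2 ranked 254 and 346. The cut at a fold of 30 was chosen after the values were seen. At a fold of at least 100 the list had 5 peaks, of which 3 were day 0 only. The interval of that share runs from 14.7 to 94.7%, which holds the 28.7% found over all control day 0 regions. Of the 3 peaks, the 2 on chromosome 11 lay 738 bp apart and are not independent.

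The surroundings of these peaks differed. Within 50 kb of the strongest chromosome 11 peak there were 5 further control day 0 peaks, all of them day 0 only, and a single day 3 LSD1 peak 46.3 kb away. Within 50 kb of the chromosome 3 peak at 17443239 there was 1 further control day 0 peak and 1 day 3 LSD1 peak, and around the one at 155829039 there was 1 knockdown LSD1 peak and nothing else. The chromosome 10 peak at 29811119 lay among 12 further control day 0 peaks, 6 day 3 LSD1 peaks, 1 LSD1+8a peak and 7 SVIL peaks, with no knockdown peak. It missed the nearest region of another list by 519 bp. The high-fold peaks of chromosomes 11 and 3 thus had few peaks of other lists within 50 kb, although those of chromosome 11 had further control day 0 peaks. Those of chromosome 10 lay in sequence where other libraries had peaks too. Peaks of chromosomes 11 and 10 named here recur in the runs described below. Those of chromosome 10 also recur in the fullest windows, so these are not separate results.

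The other regions among the 15 highest scores had lower folds and were 920 to 1425 bp long, all above the upper quartile of day 0 only regions, 869 bp. They were chr9:135905679-135906601 with 41 tags at a fold of 24.6, chr19:4815261-4816292 with 44 at 21.0, chr7:129592157-129593382 with 59 at 17.99, chr11:19726593-19727512 with 41 at 16.0 and chr9:117159891-117161315 with 43 at 14.8. The last 2 were chr10:43904103-43905500 with 53 tags at 12.7 and chr7:64711911-64713182 with 61 at 11.1. The chromosome 9 regions and both chromosome 7 regions had 1 further control day 0 peak within 50 kb and no peak of another list there. The chromosome 11 region had 6 LSD1 peaks of day 3 within 50 kb, the nearest region of another list 1.2 kb away. At the other end, the 5 lowest scores ran from 50.0 to 50.02 with 10 to 15 tags at folds of 7.11 to 8.88.

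Some regions with many tags had a low fold. The region at chr1:121484006-121485545 had 1263 tags, the most of all 4788, at a fold of 2.13, the lowest of the whole control day 0 list, and no peak of any list lay within 50 kb. The region at chr2:91760393-91764467 was the longest, at 4075 bp, with 227 tags at a fold of 6.16, and the nearest region of another list was 1310 kb away. Also among the longest were chr1:145471623-145474949 (3327 bp, 102 tags), chr17:59487523-59490176 (2654 bp, 68 tags), chr1:185284893-185287321 (2429 bp, 64 tags) and chr17:70115947-70118329 (2383 bp, 75 tags), with folds of 5.91, 5.20, 6.72 and 10.7. The longest regions thus lay below the list's median fold of 9.30, apart from the last. The input libraries were not examined at these positions.

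Few members lay within 100 bp of a region of another list, and more lay within 1 kb. Of the 4788 regions, 7 lay less than 10 bp from a region of another list, 37 less than 50 bp and 72 (1.504%) less than 100 bp. Within 1 kb lay 429 (8.96%). The number of members depended on the overlap rule, with 4266 when merging at 1 kb and 5870 at a reciprocal overlap of 50%. The nearest was chr16:71599219-71599740, with 10 tags, which touched a knockdown LSD1 peak without sharing a base. The next were chr4:105315759-105316313, 4 bp from a day 3 LSD1 peak, and chr5:77072516-77073178, 5 bp from an LSD1+8a peak. On the other side of the rule, 38 of the 12094 overlapped peaks shared at most 100 bp with another list. The shortest was the single base shared by chr1:101360141-101361003, with 19 tags, and a knockdown LSD1 peak, followed by 4 bp at chr13:74880004-74880498, with 12 tags, and a day 3 LSD1 peak. The 5 nearest members had 10 to 25 tags, and the 5 peaks with the shortest overlap had 12 to 19.

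Day 0 only regions lay about as near to regions of other lists as the other control day 0 regions did. The median gap to the nearest further region with a peak of another list was 21.995 kb, against 19.7 kb for the 11867 other control day 0 regions. Within 10 kb of such a region lay 31.1% (29.8 to 32.5) of the day 0 only regions and 33.6% (32.8 to 34.5) of the others, and within 100 kb 89.6% (88.7 to 90.4) and 91.1% (90.6 to 91.6). For 3193 regions (66.7%) the nearest peak of another list was a day 3 LSD1 peak, for 1247 (26.0%) a knockdown LSD1 peak, for 274 (5.72%) an LSD1+8a peak and for 72 (1.504%) a SVIL peak. The lists differ in length, so these shares rank no factor.

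Single lists differed more in places. A further region with a SVIL peak lay within 10 kb of 1.73% (1.38 to 2.14) of the day 0 only regions, against 3.07% (2.76 to 3.39) of the others. For day 3 LSD1 these shares were 23.02% (21.8 to 24.2) and 27.1% (26.3 to 27.9). For knockdown LSD1 they were 14.8% (13.8 to 15.9) and 15.4% (14.7 to 16.0), with overlapping intervals. Within 1 kb the order for knockdown LSD1 was the other way, with 4.62% (4.04 to 5.25) of the day 0 only regions and 2.96% (2.66 to 3.28) of the others. Regions of the second set have been merged with the peaks that overlap them, which removes close neighbours from that count, so the values at 1 kb are not on equal terms.

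**Figure D2:**
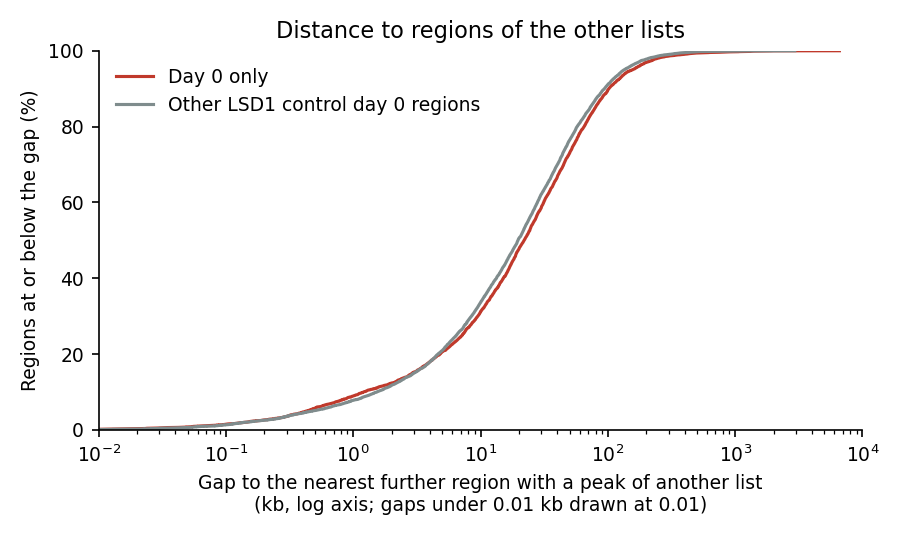
Cumulative share of regions (%) by the gap in kb (log axis) to the nearest further region with a peak of another list, for day 0 only regions in red and the other LSD1 control day 0 regions in grey. The curves run close together, with medians of 21.995 and 19.7 kb.

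The regions farthest from any other list were chr9:45356860-45357187, with 10 tags, 6585 kb away, chr9:66457903-66458664, with 28 tags, 1996 kb away, chr1:142618551-142619255, with 25 tags, 1913 kb away, and chrX:125715123-125715407, with 11 tags, 1754 kb away. They were chosen after the distances were seen. In all, 14 of the 4788 regions lay more than 1000 kb from any other list. Within that distance lay 99.71% (99.51 to 99.84) of the day 0 only regions. For the other control day 0 regions the share was 99.93% (99.87 to 99.97). The regions named in this paragraph had scores of 61.6, 106.6, 89.4 and 90.3, in the order given.

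Day 0 only regions lay near each other somewhat more often than other control day 0 regions lay near them. A further day 0 only region was found within 25 kb of 19.5% (18.4 to 20.7) of them, against 15.4% (14.8 to 16.1) of the other control day 0 regions, and within 10 kb of 10.9% (9.99 to 11.8) against 7.29% (6.83 to 7.77). Within 1 kb the shares were 3.88% (3.36 to 4.47) and 1.90% (1.67 to 2.17), so part of both differences lay at this distance, where single peaks and regions merged from several lists are not on equal terms. For any further control day 0 region within 25 kb, shared or not, the 2 sets had overlapping intervals, 43.8% (42.4 to 45.2) and 43.1% (42.2 to 44.0). Most groupings were pairs. Linking regions at most 25 kb apart gave 426 groups of at least 2, 58 of at least 3, 15 of at least 4 and 6 of at least 5. The largest held 6 regions, and 80.5% of the regions stood alone at this distance.

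The 6 runs of at least 5 regions were of different kinds. The run at chr11:94153285-94180747 held 6 peaks with folds of 12.6 to 193 over 27.5 kb and no peak of another list inside it. Its folds were 12.6, 15.5, 19.2, 60.7, 132 and 193 along the chromosome, and its tags 9, 25, 12, 41, 88 and 156. Its peaks were 179, 757, 284, 556, 380 and 767 bp long in the same order. The length of 179 bp was the shortest of the whole control day 0 list. The peaks of 179 and 284 bp were shorter than the fragments, which were of at least 300 bp per the protocols. The run at chr11:46383889-46414554 also held 6 peaks and none of another list, but these had 12 to 27 tags at folds of 5.81 to 12.4 and scores of at most 67.4. The run at chr16:85240312-85304793 held 5 peaks with 20 to 39 tags at folds of 6.89 to 12.4 and no other list. A knockdown and a day 3 LSD1 peak lay beyond its end at about 80.5 kb from its start.

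In the 3 other runs, day 0 only regions alternated with shared ones. The run at chr10:29751111-29775627 held 6 day 0 only peaks with 11 to 28 tags and 4 shared control day 0 peaks with 27 to 54 tags, together with 3 LSD1 peaks of day 3, 4 SVIL peaks, and neither knockdown LSD1 nor LSD1+8a peaks. The peaks shared there were mostly larger than their day 0 only neighbours. The run at chr7:5560863-5610347 held 6 day 0 only peaks and 3 shared ones. The 3 shared peaks had 36, 65 and 87 tags, against 11, 13, 11, 53, 25 and 34 in the day 0 only peaks. The run at chr11:12824134-12869169 held 5 day 0 only peaks with 13 to 24 tags and 2 shared ones with 59 and 46.

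**Figure D3:**
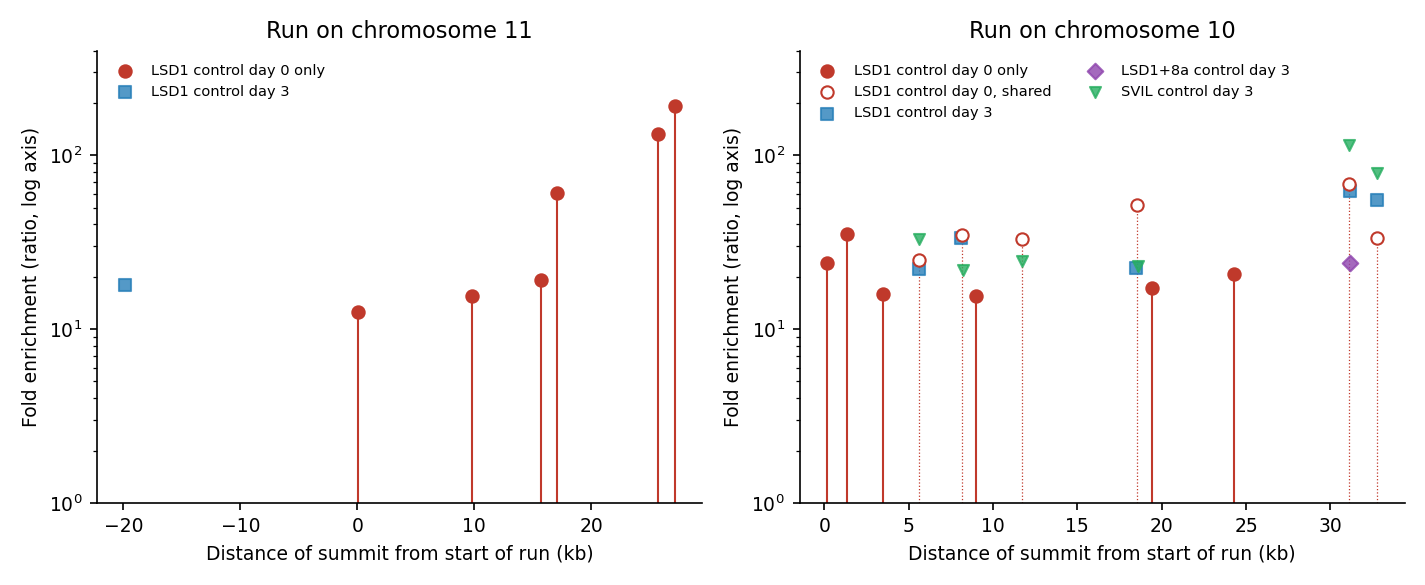
Fold enrichment (ratio, log axis) of each peak by the distance of its summit from the start of the run (kb), for a run on chromosome 11 and one on chromosome 10; filled red points are day 0 only peaks, open red points are shared LSD1 peaks of control cells at day 0, and other symbols are the other lists, whose folds come from their own calls. On chromosome 11 the 6 day 0 only peaks have folds of 12.6 to 193 with no other list among them, and on chromosome 10 they lie between shared peaks.

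By windows of 1 Mb the regions were widely scattered. Of 2511 windows with a control day 0 region, 1932 held at least 1 day 0 only region and 714 held exactly 1. The fullest lay on chromosome 10, between 29 and 30 Mb, and on chromosome 19, between 10 and 11 Mb, each with 13 (exact Poisson interval 6.92 to 22.2) of 28 and 29 control day 0 regions. That interval does not allow for their choice as the fullest of the 2511 windows. Both windows were also rich in control day 0 regions. Windows with 12 included chromosome 17 between 42 and 43 Mb and chromosome 9 between 132 and 133 Mb, out of 22 regions, and chromosome 13 between 36 and 37 Mb, out of 23. In 15 windows with 3 or more control day 0 regions every one was day 0 only, where the share over all control day 0 regions was 28.7%. Most of the 15 held just 3 regions. The number of all windows with 3 or more is not given here, so these 15 are not read as clusters. The fullest of these was chromosome 2 between 213 and 214 Mb, with 7, followed by chromosome 20 between 45 and 46 Mb and chromosome 4 between 122 and 123 Mb, with 5 each.

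By chromosome, the share of control day 0 regions found in no other list was highest on chromosome X. Chromosome X had 99 day 0 only regions of 244, or 40.6% (34.4 to 47.0), against the 28.7% of the whole list. Control day 0 peaks on chromosome X had lower scores, with a median of 74.1 against 81.1 for all chromosomes. At the score deciles of its regions, the whole list had a share of 32.0%, which lies below the interval for chromosome X. Next came chromosome 4 with 33.7% (30.4 to 37.2), chromosome 20 with 32.6% (28.1 to 37.4) and chromosome 11 with 31.9% (28.8 to 35.01). The lowest share, leaving aside the 2 regions of chromosome Y, which were both shared, was 25.5% (18.5 to 33.7) on chromosome 21. Chromosome X stayed above the whole list under each of 6 alternatives added after the data were seen, of which the fold threshold and leaving out chromosome Y left its 99 of 244 as they were, for example at 23.8% against 14.5% in the upper 50% of the list by score.

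Single-list regions were frequent on chromosome X in the other LSD1 lists too. Of the regions with a knockdown LSD1 peak on chromosome X, 39.7% (32.6 to 47.1) were found in that list alone, against 19.8% of all its regions, and for day 3 LSD1 the values were 65.4% (59.1 to 71.4) and 52.2%. On chromosome X 30.7% (25.01 to 36.9) of the control day 0 regions had a day 3 LSD1 peak, against 49.7% (48.9 to 50.5) on all chromosomes. The share with a knockdown peak was 42.2% (35.9 to 48.7) on chromosome X and 42.4% (41.7 to 43.2) on all chromosomes. The interval for chromosome X thus lay below that of all chromosomes for day 3 and overlapped it for the knockdown.

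Chromosome 19, the most gene-dense human chromosome, held 239 day 0 only regions, 4.99% (4.39 to 5.65) of them, and 5.33% (4.93 to 5.75) of the other control day 0 regions. Its share of day 0 only regions, 27.4% (24.5 to 30.5), was near that of the whole list. Its control day 0 peaks had high scores, with a median of 103.7, and at the same score deciles the whole list had a share of 22.6%, below the interval for chromosome 19. Its overlap with the other LSD1 lists was far from the average. Of its control day 0 regions 35.6% (32.4 to 38.9) had a day 3 LSD1 peak and 62.2% (58.9 to 65.5) a knockdown peak, against 49.7% and 42.4% on all chromosomes. Chromosome 19 also held 1.29% (1.08 to 1.52) of the regions with LSD1 at day 3 only and 6.51% (5.47 to 7.68) of those with LSD1 in knockdown cells only. By this measure the day 0 only regions, at 4.99%, lay between the 2 other kinds of single-list LSD1 regions. The whole lists had the same order on chromosome 19. It held 482 of 20693 day 3 LSD1 regions, 871 of 16655 control day 0 regions and 710 of 10163 knockdown regions. The order is thus not particular to single-list regions.

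**Figure D4:**
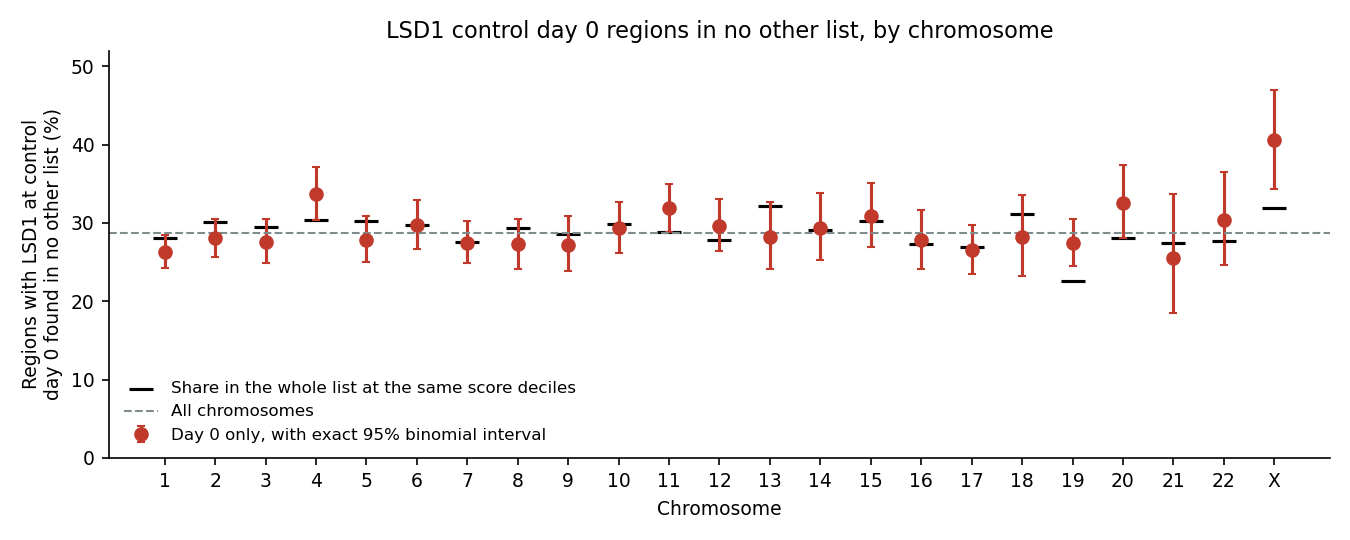
Share (%) of LSD1 control day 0 regions found in no other list, by chromosome, without chromosome Y; red points have exact 95% binomial intervals, black dashes give the share in the whole list at the same score deciles, and the dashed line is the share over all chromosomes, 28.7%. Chromosome X stands highest at 40.6%.

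Regions found in a single list were weaker than shared ones in each of the 3 LSD1 lists. In control cells at day 0 the median was 18 tags against 31 in shared peaks, in knockdown cells at day 0 it was 17 against 32, and in control cells at day 3 it was 41 against 63. The fall with score had a different shape by list. In the highest score decile 2.31% (1.65 to 3.14) of control day 0 peaks were found in that list alone, against 1.17% (0.606 to 2.04) of knockdown peaks and 15.1% (13.6 to 16.7) of day 3 peaks. In the lowest decile the shares were 53.8%, 42.1% and 68.2%. The interval for control day 0 lay below that for day 3 in all 10 deciles. In the highest decile it overlapped that for the knockdown list. The knockdown list is shorter and the day 3 list longer than the control day 0 list, with 10248, 20748 and 16882 peaks. Tags inside peaks came to 539449 in the control day 0 list, 1266603 in the day 3 list and 346367 in the knockdown list. These totals depend on the peaks called and are not read depth. Read depth was not at hand, and a peak absent from a list cannot be told apart from one that a shallower library did not detect.

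**Figure D5:**
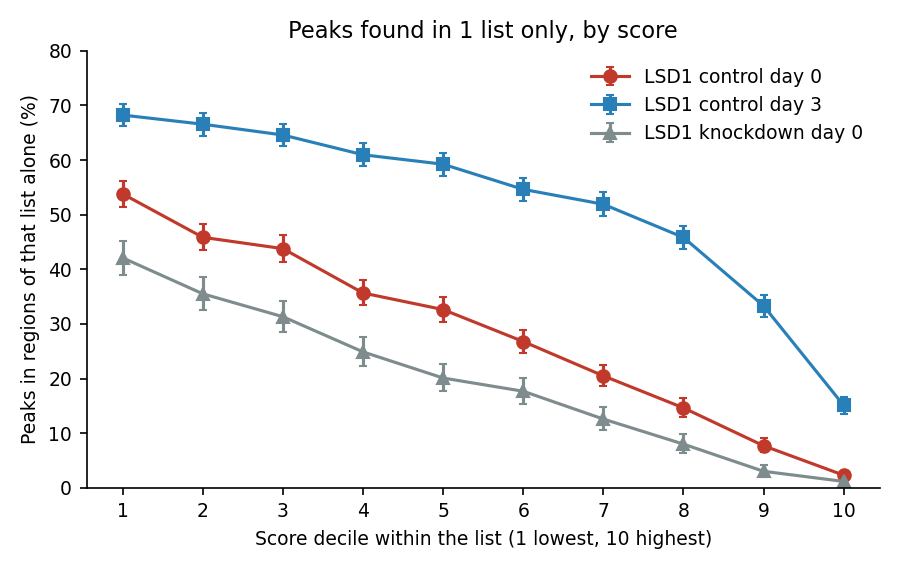
Share of peaks (%) in regions of that list alone, by score decile within each list, with exact 95% binomial intervals, for LSD1 in control cells at day 0 (red), in control cells at day 3 (blue) and in knockdown cells at day 0 (grey). In the highest decile the shares were 2.31%, 15.1% and 1.17%.

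Stronger day 0 only regions were placed much like the weaker ones. The 567 with a score of at least 100 had a median of 30 tags at a fold of 11.4 and a length of 924 bp, against 17 tags, a fold of 8.86 and 669 bp for the 4221 with a lower score. Of the stronger ones 27.3% (23.7 to 31.2) lay within 10 kb of a region of another list, against 31.6% (30.2 to 33.1) of the weaker ones, with overlapping intervals. Their share on chromosome 19 was 4.94% (3.31 to 7.06) against 4.999% (4.36 to 5.70), and 9 of the 567 lay on chromosome X, against 90 of the 4221.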

How the data were processed

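Peak lists of 5 ChIP-seq libraries were used, called by the authors per library against an input, as the lists' names state. The names do not say which input each list was called against. Among the samples, control cells at day 0 have an input without a mark in its label. The sole input of control cells at day 3 is labelled for a histone mark. Whether the lists of day 0 and day 3 were called on equal terms is thus unknown. The tools CASAVA and Bowtie 1.0.0 and the build hg19 are named, without roles, per the submitters' processing notes, which also name mm9; the lists hold chromosomes 20 to 22, which mice lack. Positions are read as hg19 and are 1-based as deposited. The peak caller and its threshold, like duplicate removal and read totals, are absent from the labels and headers used here. Per the labels' protocols, sonication gave 300 to 800 bp and fragments of 300 to 600 bp were selected, which limits resolution. The deposited tags are whole-number counts per peak, without normalization. Fold enrichment, as deposited, is a ratio per peak with an unstated denominator, and the deposited score has lost its name in the file header. Scores, folds and tags were compared within a list.

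Overlap, gaps (bases between edges), runs (at least 5 regions, neighbours at most 25 kb apart) and exact intervals were computed with Python 3.11.15, pandas 2.3.3 and SciPy 1.17.1, and checked on simulated lists. Deciles were formed by rank within a list. Shares at the same score deciles average the list's share per decile over a chromosome's regions. Regions named are the 15 highest and 5 lowest scores, the 5 longest, those nearest the limit on both sides, and the fullest runs and windows, of which the text gives the leading ones. The members and lists were chosen with earlier results of these data known. Each group has 1 library, so no test between conditions was made. Planned gene positions, sequences and motifs were not run, because the tables at hand are on another assembly than hg19, so no gene is named for a region. The alternatives are 6 planned ones and those named as added.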

Additional observations from a re-analysis of the deposited data

How the results depend on the processing

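The values below are those of the day 0 only regions, so whether their order against the other regions holds was checked for chromosome X alone. Limiting the control day 0 list to its upper 50% by score left 1214 regions (14.5% of that list's regions) with medians of 26 tags, a fold of 10.7 and 857 bp, 28.1% within 10 kb of another list, 7.17% with a further one within 25 kb, and 1 run. Limiting each other list to its upper 50% gave 8230 regions (49.3%), with medians of 21 tags and 744 bp, 18.4% within 10 kb, 28.1% within 25 kb of each other and 18 runs. Merging at 1 kb gave a share of 26.5%, 24.2% within 10 kb, 14.9% within 25 kb of each other and 2 runs. A reciprocal overlap of 50% gave 35.2%, a median of 701 bp, 4.38% on chromosome 19, 43.8% within 10 kb (overlapping peaks counted) and 21.6% within 25 kb of each other. The fold threshold removed 1 peak and leaving out chromosome Y removed 2 shared regions, so neither setting could move a value by much and both say nothing about stability. Leaving out a list, chosen after the data were seen, gave 8982 regions (53.4%) without LSD1 at day 3, 7592 (45.5%) without knockdown LSD1 and 29.7% without LSD1+8a. The number of regions thus moved with the score thresholds and with the 2 other LSD1 lists, and depth is unknown. No paired analysis was possible because each group has 1 library. The planned wider window for sequence at summits was not run, for want of an hg19 genome here.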
